A study of Mus musculus with 38 samples.

Results

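The genes described here are 32 genes that mark the cells of brain blood vessels, 25 of endothelial cells and 7 of pericytes, out of 57010 gene IDs counted in mouse medial prefrontal cortex. The rule lists genes by name for their known roles in brain vessels, tight junction genes and pericyte markers among them, and uses no measured value. The members were, however, chosen with earlier results of these data known. Each of 38 mice gave 1 bulk RNA library. Mutant mice were SSTCre:γ2f/f, that is, floxed γ2 alleles combined with a Cre recombinase that acts in somatostatin neurons, and control mice were SSTCre, so that all animals carried the same Cre. Both genotypes were either exposed to chronic variable stress for 21 days (CVS) or not stressed (NS), and tissue was taken 24 hours after the last stressor. The groups held 4 male mutant CVS, 3 male mutant NS, 6 male control CVS and 5 male control NS mice, and 5 female mice in each of the same 4 groups. No ages of the animals are stated in the labels. The Cre is named for somatostatin, a neuronal peptide, and no group carried an allele named for a vessel gene.

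Endothelial cells line the vessels and, in the brain, form the blood-brain barrier: tight junctions seal the clefts between them, and transporters in their membranes select what crosses. Pericytes sit on the outer wall of capillaries, are recruited through the PDGF receptor β, and help to keep the barrier closed. Vascular endothelial growth factor and angiopoietins act on receptors of endothelial cells to set vessel growth and permeability. Chronic stress in mice has been linked in other work to loss of the tight junction protein claudin-5 in some brain regions.

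Libraries held between 17.64 M and 27.51 M counts, where M is 1e+06, with a mean of 21.06 ± 2.275 M over all 38 (SD). Ccng1, a cyclin whose level marked genotype in these mice, was at 86.34 to 102.6 CPM (counts per 1e+06 counts) in male mutants against 73.26 to 82.54 CPM in male controls. In females it was at 81.26 to 98.42 CPM in mutants against 60.62 to 73.84 CPM in controls, so the genotypes did not overlap within a sex. One other gene that separated the genotypes in the remaining libraries placed the library labelled male mutant CVS replicate 1 among the controls. Ccng1 of that library, at 94.8 CPM, lay among the mutants. Results that rest on this library are given with and without it. Cdhr1, a cadherin that marks olfactory bulb, reached 25.78 CPM in male mutant NS replicate 2, 27.46 CPM in replicate 3 of that group and 16.55 CPM in male control CVS replicate 1. It lay between 1.699 and 5.197 CPM in the other libraries. Animal names differ in kind between males and females, so sex and cohort cannot be told apart, and each sex was fitted alone. Nothing in the labels says whether mice shared a cage or litter, so p values measure the spread between these animals.

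All 32 members passed the filter on low counts in every fit, and the lowest count of any member in any library was 16, for Higd1b. Summed over the endothelial members, the level was 328.1 to 802 CPM per library, and summed over the pericyte members it was 97.84 to 235.6 CPM. For scale, 5 neuronal markers summed to 5968 to 7317 CPM, 5 astrocyte markers to 900.9 to 1172 CPM, 5 smooth muscle markers to 13.06 to 42.21 CPM and 5 choroid plexus markers to 1.634 to 9.181 CPM. In bulk tissue, fewer vessel cells and less RNA per vessel cell cannot be told apart.

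Promoters of some members that the comparisons below turn on are shown first, because promoter sequence is where the transcription factors among the members could act. The set of RefSeq promoters used here, on GRCm38.p6, held an entry for 23 of the 32 members. Each line gives the 200 bases before the annotated start, 5′ to 3′ on the strand of the gene. Capitals mark matches to 4 short motifs on either strand, namely the CCAAT box, the ETS-type motifs CCGGAA and, with other flanking letters, CAGGAA, and the SOX-type motif ACAAT. Cldn5 lies at chr16:18776647-18776846 on the plus strand, Kdr at chr5:75978456-75978655 on the minus strand, Mfsd2a at chr4:122961189-122961388 on the minus strand, Kank3 at chr17:33810323-33810522 on the plus strand, and Eng at chr2:32646395-32646594 on the plus strand.
Cldn5: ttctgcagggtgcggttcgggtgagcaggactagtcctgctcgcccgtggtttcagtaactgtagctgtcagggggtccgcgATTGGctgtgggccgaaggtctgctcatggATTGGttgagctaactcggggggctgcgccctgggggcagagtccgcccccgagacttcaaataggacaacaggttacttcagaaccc
Kdr: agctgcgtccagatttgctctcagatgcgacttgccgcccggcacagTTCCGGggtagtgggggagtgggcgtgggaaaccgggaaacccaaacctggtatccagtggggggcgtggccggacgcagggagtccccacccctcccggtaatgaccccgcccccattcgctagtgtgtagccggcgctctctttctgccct
Mfsd2a: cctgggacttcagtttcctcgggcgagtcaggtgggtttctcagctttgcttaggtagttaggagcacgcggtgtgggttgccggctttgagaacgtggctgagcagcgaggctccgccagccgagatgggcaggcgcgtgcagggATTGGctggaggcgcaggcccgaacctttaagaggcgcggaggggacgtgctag
Kank3: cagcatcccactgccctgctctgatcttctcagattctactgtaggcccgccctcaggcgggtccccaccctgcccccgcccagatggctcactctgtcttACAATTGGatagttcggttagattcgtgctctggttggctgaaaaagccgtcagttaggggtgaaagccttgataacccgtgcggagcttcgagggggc
Eng: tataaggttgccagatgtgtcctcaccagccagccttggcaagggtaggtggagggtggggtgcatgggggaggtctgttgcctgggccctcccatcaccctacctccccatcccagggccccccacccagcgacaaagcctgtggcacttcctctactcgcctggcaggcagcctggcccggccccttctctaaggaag

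The Cldn5 window held 2 copies of CCAAT, read here as ATTGG on the other strand, and the Mfsd2a window held 1. The Kdr window held 1 copy of CCGGAA, read as TTCCGG, which carries the core letters that ETS factors such as Erg recognise. The Kank3 window held 1 copy of ACAAT and 1 of the CCAAT box on the other strand, which shared letters. Eng had 0 matches to the 4 motifs in this window, and so had Slc16a1 and Anpep, whose windows are not shown. Over all members with a promoter entry, CAGGAA was found in 5 of 23 (21.7%), against 21.3% of 27025 mouse promoters of the same length. For genes with more than 1 entry, the first listed was read. CCGGAA was found in 1 of 23 (4.35%, against 10.9%), ACAAT, letters that SOX factors recognise, in 5 of 23 (21.7%, against 23.3%), and CCAAT in 6 of 23 (26.1%, against 30%). These last motifs can overlap, as in Kank3, the CCAAT box was added after the sequences had been seen, and a match is only a description of the window.

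Levels of different genes were compared per kb of exon. Cldn5, the main tight junction protein of brain endothelium, was the most abundant member in males at 29 ± 4.44 CPM per kb (SD, n = 18), and Vtn, the vitronectin that pericytes secrete, was next at 24.7 ± 3.49. Itm2a, a membrane protein enriched in brain endothelium, stood at 23.8 ± 2.18 CPM per kb, and Slc2a1, the glucose transporter of the barrier, at 23.6 ± 1.84. The SD ranges of these 4 neighbours in the order overlapped. All were measured in the same libraries, and differences within a library were not tested. The order in females began with Vtn at 20 ± 3.05 CPM per kb, Slc2a1 at 18.7 ± 2.43 and Cldn5 at 18.4 ± 3.25 (SD, n = 20), again with overlapping SD ranges. Rgs5, a regulator of G-protein signalling that marks pericytes, held the fifth place in both sexes, at 21.2 ± 2.4 CPM per kb in males and 11 ± 1.51 in females. At the other end, Emcn, the sialomucin endomucin, stood at 0.846 ± 0.129 CPM per kb in males and 0.401 ± 0.113 in females.

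**Figure D1:**
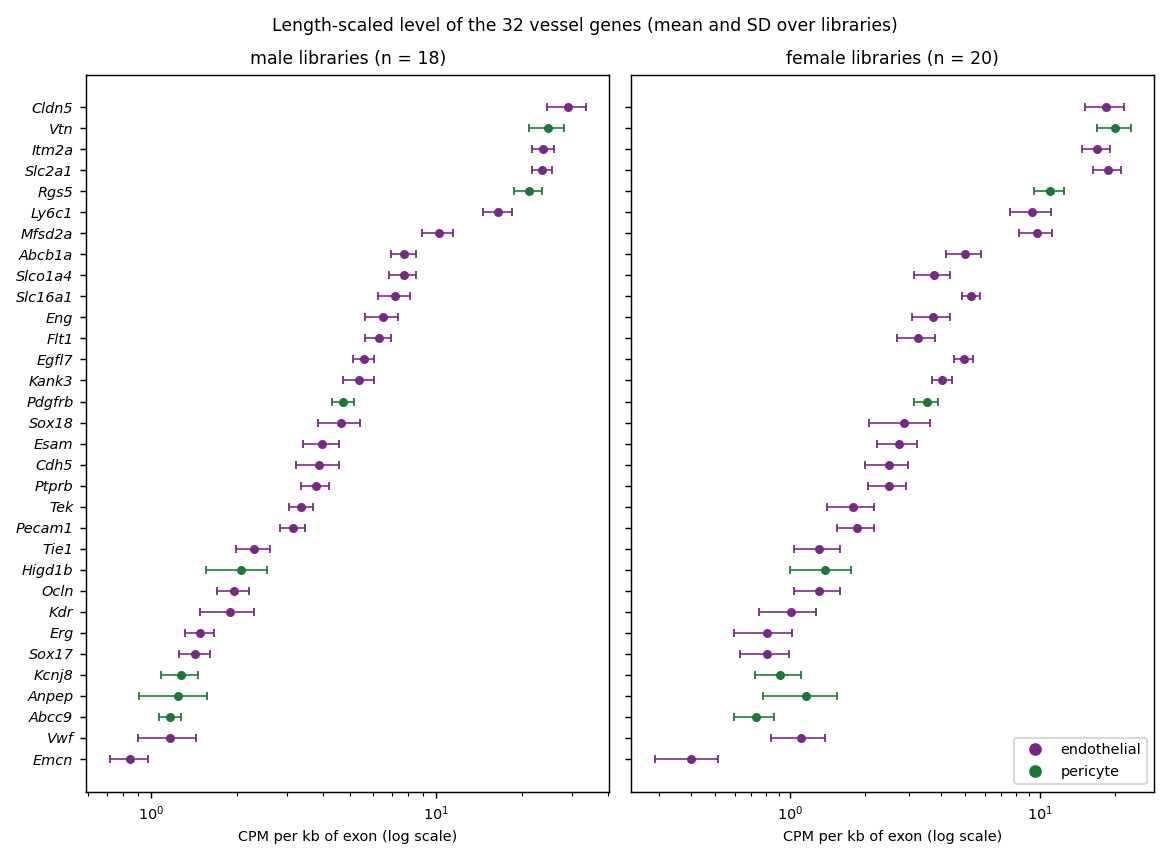
Length-scaled level of each of the 32 members (CPM per kb of exon, log axis) in 18 male and 20 female libraries, with points for means and bars for SD, endothelial genes in purple and pericyte genes in green. Cldn5, Vtn, Itm2a and Slc2a1 stand at the top in males between 23.6 and 29 CPM per kb, and Emcn at the bottom.

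Within a group, some members varied far more between mice than others. The SD of log2 CPM, with a small constant added to CPM, was taken around the group means. It was largest for Anpep, the membrane aminopeptidase N of pericytes, at 0.347 in males and 0.422 in females. Next in males were Vwf, von Willebrand factor of larger vessels, at 0.306 and Higd1b, a small mitochondrial protein gene used as a pericyte marker, at 0.29. In females they were Kdr, the main receptor of vascular endothelial growth factor, at 0.397 and Vwf at 0.359. Slc2a1 in males (0.1) and Slc16a1, the monocarboxylate transporter MCT1, in females (0.109) varied least. The median over the 32 members was 0.151 in males and 0.246 in females, beside 0.128 and 0.14 over genes in the same range of levels. For 28 of 32 members the spread was larger in females. Counting noise was not taken out of these values. It weighs most where counts are low, as for Higd1b (lowest count 17 in males). Most members had lower levels in females, and the part of counting noise in their larger spread there was not tested.

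Across 15 comparisons, 0 of 32 members passed a Benjamini-Hochberg adjusted p of 0.05, taken over all genes tested, in the quasi-likelihood test of edgeR, and limma voom also gave 0. The counts below therefore use the sign of each log2 fold change, given with its SE, and the unadjusted p under 0.05. Beside each stands the share of all genes that met the same rule in the same fit, with no library left out. For fits with libraries left out no such share is given, and so no count at an unadjusted p under 0.05. Members varied together between mice of a group (mean correlation 0.356 in males and 0.425 in females), so their signs are not independent. A count of signs beside the share of all genes is therefore a description and not a test. DESeq2 called 2 members in 1 comparison and 1 member in another, and 0 in the others. The share of all genes called with DESeq2 or in the other alternatives is not given here, so member calls in them lack that comparison.

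**Figure D2:**
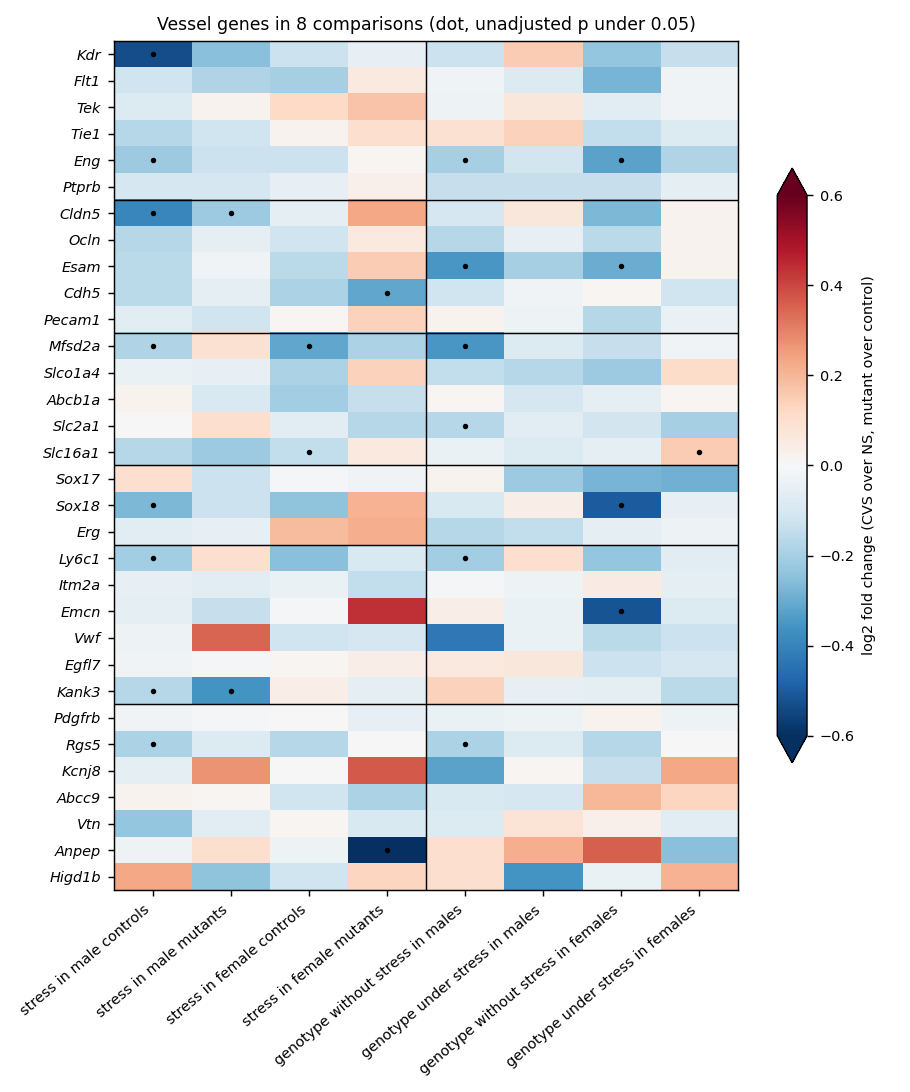
Log2 fold changes of the 32 members (rows, ordered by role) for CVS over NS in the 4 left columns and mutant over control in the 4 right columns; blue is lower, red is higher, and dots mark an unadjusted p under 0.05. Of the 32 members, 27 were negative for stress in male controls and 26 for genotype without stress in females, against 14 for stress in female mutants.

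Stress in male controls addressed how the vessel genes stand after CVS in mice without the mutation. Cldn5 and Kdr were lower in every CVS library than in any NS library. Of 32 members, 27 were negative, against 49.9% of 17212 genes tested, and the median log2 fold change was −0.09 while the median of all genes was near 0. With edgeR 0 members passed, against 0.0116% of genes. At an unadjusted p under 0.05, 8 members were lower, against 3.79% of genes, and 0 were higher, against 3.6%. The groups did not overlap for 2 members, both lower, against 0.395% of genes, and for 0 members in the higher direction, against 0.43%.

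Of the 6 receptors and receptor regulators, all were negative in stressed male controls. Kdr had a lowest, median and highest value of 11.7, 14.2 and 16.1 CPM in the 6 CVS libraries, against 17.8, 17.1, 21.9, 20.1 and 25.9 CPM in NS replicates 1 to 5. The 2 sets of values did not meet, and the log2 fold change was −0.53 ± 0.116 (edgeR adjusted p = 0.236). Eng, endoglin, a co-receptor of the TGFβ and BMP9 pathway in endothelium, was at 20.4, 26.2 and 28.2 CPM (lowest, median, highest) in CVS libraries against 26.8, 27.6, 27.1, 32.2 and 34.6 CPM in NS libraries. Its groups overlapped, with −0.22 ± 0.0781 and an edgeR adjusted p of 0.584. Tie1, an orphan receptor that modulates angiopoietin signalling, was at −0.17 ± 0.105, Flt1, the decoy receptor of vascular endothelial growth factor, at −0.12 ± 0.0769, Ptprb, the phosphatase that restrains Tek, at −0.10 ± 0.0839, and Tek, the angiopoietin receptor, at −0.08 ± 0.0869.

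All 5 junction and adhesion genes were negative as well. Cldn5 had a lowest, median and highest value of 31.8, 36 and 40.5 CPM in CVS libraries, against 43.7, 42.5, 48.9, 50.6 and 51.3 CPM in NS replicates 1 to 5. It averaged 36.2 ± 2.86 CPM in 6 CVS mice and 47.4 ± 4.05 CPM in 5 NS mice (SD). The log2 fold change of Cldn5 was −0.39 ± 0.0794, with an edgeR adjusted p of 0.199. Cldn5 and Kdr passed in 2 alternatives: with DESeq2 (adjusted p = 0.0147 and 0.0167) and with no filter on low counts (0.000587 and 0.0134). Cldn5 alone also passed when the 2 male control groups were fitted without the mutants. These calls stand without the share of all genes that passed in the same alternatives. Leaving out each library in turn kept Cldn5 between −0.43 and −0.35 and Kdr between −0.59 and −0.43, with 0 members called. Over 17 alternatives the adjusted p ran from 0.000587 to 0.71 for Cldn5 and from 0.0134 to 0.71 for Kdr. The other junction genes were at −0.17 ± 0.107 for Ocln, occludin, −0.16 ± 0.0932 for Esam, an adhesion molecule of endothelial junctions, −0.16 ± 0.142 for Cdh5, VE-cadherin, and −0.07 ± 0.083 for Pecam1, an adhesion molecule shared with platelets and leukocytes.

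Barrier transporters were mixed in stressed male controls, with 3 of 5 negative. Mfsd2a, the carrier of lysophosphatidylcholine lipids that also keeps transcytosis low, was at −0.18 ± 0.0744 and was below the NS mean in 6 of 6 CVS libraries. Slc16a1 stood at −0.17 ± 0.089 and Slco1a4, an organic anion transporter, at −0.04 ± 0.08. Slc2a1 was at 0.00 ± 0.0542 and Abcb1a, the P-glycoprotein efflux pump, at 0.02 ± 0.0797. Among the transcription factors, Sox18 was at −0.27 ± 0.125, Erg at −0.07 ± 0.116 and Sox17 at 0.10 ± 0.11. All 6 of the other endothelial genes were negative, from −0.21 ± 0.0802 for Ly6c1, a surface protein of mouse brain endothelium, and −0.17 ± 0.0755 for Kank3, a cytoskeletal adaptor, to −0.02 ± 0.0745 for Egfl7, a secreted factor of endothelium. Of the 7 pericyte genes 5 were negative, and Rgs5 at −0.19 ± 0.0741 was the one with an unadjusted p under 0.05. Pdgfrb, the receptor that defines pericytes, was at −0.02 ± 0.0768.

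**Figure D3:**
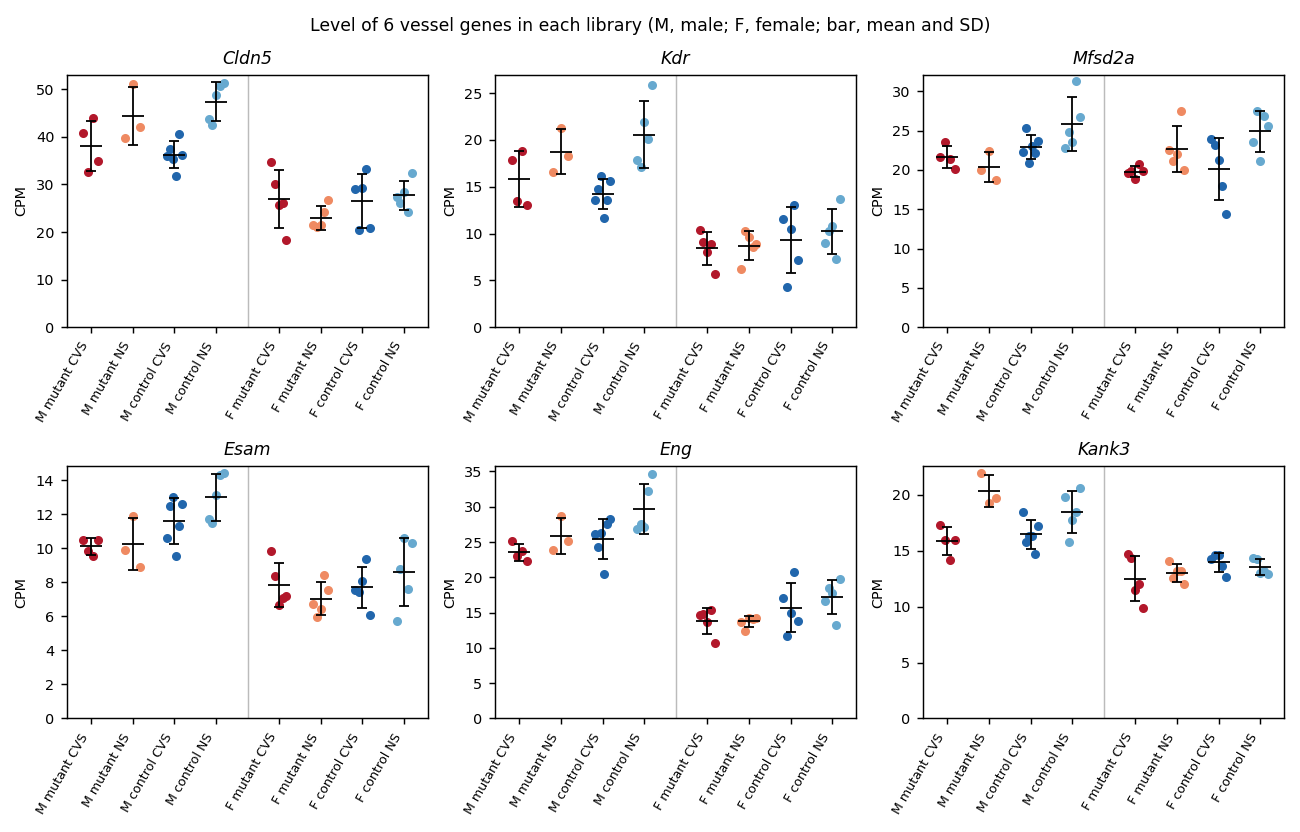
Level in CPM of 6 members in every library of the 8 groups (M, male; F, female), with bars for the mean and SD; males and females come from separate fits. Cldn5 and Kdr in male control CVS mice lie below all male control NS mice, while in females the 4 groups overlap.

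Markers of other cell types were read in the same comparison, beside 49.9% of all genes negative and 3.79% lower at an unadjusted p under 0.05. In male controls, 6 of 7 markers of meningeal and perivascular fibroblasts were negative, with a summed level of 87.57 to 130.5 CPM in CVS and 103.1 to 140.4 CPM in NS libraries. All 5 astrocyte markers were negative, 2 of them at an unadjusted p under 0.05, with a summed level of 945.3 to 1105 CPM in CVS and 1068 to 1172 CPM in NS libraries. Smooth muscle markers were negative in 3 of 5 and summed to 26.84 to 38.72 CPM in CVS and 25.72 to 42.21 CPM in NS libraries. All 5 red blood cell genes were negative (54.41 to 145.7 CPM in CVS, 87.1 to 178.3 CPM in NS libraries), 4 of 5 microglia markers were negative, and 4 of 5 neuronal markers were positive. None of these markers passed the adjusted threshold in edgeR, and their part in the vessel result was not tested. Without the 3 libraries with high Cdhr1, of which 1 is a male control CVS library, 27 members were negative and Cldn5 stood at −0.38 ± 0.0788.

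Stress in male mutants compared 4 CVS with 3 NS mice. Of 32 members, 24 were negative, against 49.9% of genes, with a median of −0.07, and 0 passed in edgeR, against 0% of genes. At an unadjusted p under 0.05, 2 members were lower, against 1.61% of genes, and 0 were higher, against 1.77%. Kank3 had 17.3, 16, 14.2 and 16 CPM in CVS replicates 1 to 4, against 22, 19.3 and 19.7 CPM in NS replicates 1 to 3. It was the 1 member whose groups did not overlap, against 1.86% of genes lower without overlap, with 0 members higher without overlap, against 1.89%. It stood at −0.36 ± 0.0953 with an edgeR adjusted p of 1. Cldn5 had 40.9, 32.6, 44 and 34.9 CPM in CVS libraries, against 39.8, 51.2 and 42.1 CPM in NS libraries. These overlapped, at −0.22 ± 0.101 with an edgeR adjusted p of 1. Kdr had 17.9, 13.5, 18.8 and 13 CPM in CVS libraries, against 16.6, 21.3 and 18.3 CPM in NS libraries, at −0.25 ± 0.147.

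The library labelled male mutant CVS replicate 1 had the highest vessel levels of its group, with a summed pericyte level of 218 CPM against 169 to 175 CPM in the other 3. Without it, 27 of 32 members were negative for stress in male mutants, and the median was −0.17. Cldn5 was then at −0.26 ± 0.109 and Kank3 at −0.40 ± 0.101. With each library left out in turn the median ran from that value to −0.03, without CVS replicate 2. In this comparison 2 of the 3 NS libraries were those with high Cdhr1. Without the 3 libraries with high Cdhr1, when 1 NS mouse was left and was assumed to vary like the other groups, 25 members were negative, Kank3 stood at −0.47 ± 0.134 and Cldn5 at −0.06 ± 0.14.

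In female controls the CVS and NS libraries overlapped for all 32 members, while 0.627% of genes were lower and 0.809% higher without overlap. Of 32 members, 24 were negative, against 50% of 16435 genes, the median was −0.10, and 0 passed in edgeR, against 0% of genes. The median was −0.17 without control CVS replicate 4 and −0.01 without control NS replicate 5. Unadjusted p values under 0.05 were found for 2 members that were lower, against 4.26% of genes, and for 0 that were higher, against 4.46%. Both were transporters, and all 5 transporters were negative. Mfsd2a had 23.9, 23.2, 21.3, 17.9 and 14.4 CPM in CVS replicates 1 to 5, against 23.5, 27.5, 21.1, 26.9 and 25.6 CPM in NS replicates 1 to 5. The groups overlapped, and the log2 fold change was −0.31 ± 0.105 with an edgeR adjusted p of 0.404 (0.0242 with no filter on low counts). Slc16a1 had 19.8, 20.9, 22.2, 24.1 and 22.9 CPM in CVS libraries, against 21.9, 27.3, 24.9, 22.1 and 26 CPM in NS libraries, at −0.15 ± 0.0702. Cldn5 had 29, 20.4, 29.2, 33.3 and 20.8 CPM in CVS libraries, against 27.4, 26, 28.4, 24.3 and 32.4 CPM in NS libraries, at −0.06 ± 0.157. The CVS libraries of Cldn5 reached both below and above the NS libraries. Kdr ran from 4.34 to 13 CPM in CVS and from 7.29 to 13.7 CPM in NS libraries, at −0.13 ± 0.247. In these mice all 5 astrocyte markers and all 7 fibroblast markers were negative, with fibroblast sums of 70.56 to 138.5 CPM in CVS and 85.41 to 119.6 CPM in NS libraries, and their part in the result was not tested.

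Female mutants had about as many members above as below their NS mice after CVS. Here 14 of 32 members were negative, against 49.7% of genes, with a median of 0.02, and 0 passed in edgeR, against 0% of genes. The sign of this median turned with single libraries, from −0.03 without mutant CVS replicate 1 to 0.09 without mutant CVS replicate 5. Again 2 were lower at an unadjusted p under 0.05, against 3.72% of genes, and 0 were higher, against 4.19%. The groups overlapped for all 32, while 0.645% of genes were lower and 0.834% higher without overlap. Anpep had 4.46, 2.8, 5.02, 3.95 and 3.05 CPM in CVS replicates 1 to 5, against 8.55, 6.06, 3.81, 6.1 and 5.64 CPM in NS replicates 1 to 5, at −0.64 ± 0.273. Cdh5 had 11.1, 8.06, 8.75, 9.63 and 8.13 CPM in CVS libraries, against 14.2, 12.7, 9.45, 9.68 and 10.9 CPM in NS libraries, at −0.31 ± 0.146. For both genes the groups overlapped, with edgeR adjusted p values of 0.573 and 0.611. The other junction genes were positive in 4 of 4, among them Cldn5 with 34.8, 30, 25.7, 26.1 and 18.3 CPM in CVS libraries, against 21.4, 21.1, 21.4, 24.3 and 26.7 CPM in NS libraries, at 0.23 ± 0.159. Fibroblast markers were negative in 6 of 7, 3 of them at an unadjusted p under 0.05, and their sums of 74.87 to 111.3 CPM in CVS and 113.9 to 141.7 CPM in NS libraries did not overlap. Border macrophage markers were negative in 4 of 4, and red blood cell genes were positive in 5 of 5. Their part in the vessel values was not tested.

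Genotype without stress asked how the vessel genes stand in the mutants at rest. In males, 23 of 32 members were negative, against 50.7% of genes, with a median of −0.09, and 0 passed in edgeR, against 0.0174% of genes. Leaving out 1 library moved the median between −0.155, without mutant NS replicate 2, and −0.034, without control NS replicate 5. There were 6 members lower at an unadjusted p under 0.05, against 3.43% of genes, and 0 were higher, against 2.7%. Mfsd2a had 20, 22.4 and 18.7 CPM in mutant replicates 1 to 3, against 22.8, 24.8, 23.5, 31.3 and 26.8 CPM in control replicates 1 to 5. It was the 1 member lower without overlap, against 1.94% of genes, and 0 were higher without overlap, against 1.9%. Its log2 fold change was −0.35 ± 0.0918 with an edgeR adjusted p of 0.665. Esam had 9.88, 11.9 and 8.89 CPM in mutants, against 11.7, 11.5, 13.1, 14.3 and 14.4 CPM in controls, at −0.35 ± 0.115. Of its 3 mutant values, 2 lay below every control. The other 4 were Slc2a1 at −0.17 ± 0.0661, Ly6c1 at −0.21 ± 0.0978, Eng at −0.20 ± 0.0952 and Rgs5 at −0.19 ± 0.0901.

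Of these 3 mutant NS libraries, 2 were high in Cdhr1. Without the 3 libraries with high Cdhr1, and with 1 mutant mouse left, 23 members were negative and Mfsd2a stood at −0.37 ± 0.141. All 5 oligodendrocyte markers and all 5 astrocyte markers were negative in this comparison. Oligodendrocyte markers summed to 952 to 1610 CPM in mutants and 1288 to 1557 CPM in controls, and their part in the result was not tested.

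In females without stress, 26 of 32 members were negative, against 49.3% of genes, with a median of −0.14, and 0 passed in edgeR, against 0.128% of genes. Without control NS replicate 5 the median was −0.084. Of the members, 4 were lower at an unadjusted p under 0.05, against 4.62% of genes, and 0 were higher, against 3.45%. The groups overlapped for all 32, while 1.13% of genes were lower and 0.669% higher without overlap. All 6 receptors, all 5 transporters and all 3 transcription factors were negative, while 4 of 7 pericyte genes were positive. Eng had 13.7, 12.4, 14.2, 14.1 and 14.3 CPM in mutant replicates 1 to 5, against 16.6, 18.5, 17.8, 13.3 and 19.7 CPM in control replicates 1 to 5. The mutant values lay close together and overlapped with 1 control, and the log2 fold change was −0.32 ± 0.124 (edgeR adjusted p = 0.475). Sox18, a transcription factor of endothelial differentiation, had 3.85, 2.9, 4.04, 4.49 and 4.03 CPM in mutants, against 7.13, 4.69, 5.95, 3.94 and 5.75 CPM in controls, at −0.50 ± 0.211. Emcn was at −0.52 ± 0.23 and Esam at −0.30 ± 0.142. Cldn5 stood at −0.27 ± 0.159 with 21.4, 21.1, 21.4, 24.3 and 26.7 CPM in mutants, against 27.4, 26, 28.4, 24.3 and 32.4 CPM in controls, where 4 of 5 mutant values were below 4 of 5 controls. All 5 oligodendrocyte markers were negative here too, 3 of them at an unadjusted p under 0.05, with sums of 928 to 1157 CPM in mutants and 1006 to 1232 CPM in controls, and 6 of 7 fibroblast markers were positive. Their part in the vessel values was not tested.

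Genotype under stress was read in the same way. In males, 22 of 32 members were negative, against 51% of genes, with a median of −0.05, and 0 passed in edgeR, against 0.0523% of genes. There were 0 lower and 0 higher members at an unadjusted p under 0.05, against 3.88% and 3.74% of genes. All 32 overlapped between genotypes, while 0.726% of genes were lower and 0.749% higher without overlap. Without the library labelled male mutant CVS replicate 1, 26 were negative and the median was −0.10. The median was −0.01 without male mutant CVS replicate 3. In females, 23 of 32 members were negative, against 50.1% of genes, with a median of −0.05, and 0 passed in edgeR, against 0.0243% of genes. Its sign turned with single libraries: it was −0.12 without female mutant CVS replicate 1, 0.07 without female control CVS replicate 4 and 0.05 without female mutant CVS replicate 5. There, 0 members were lower, against 3.63% of genes, and 1 was higher, against 3.46%, at an unadjusted p under 0.05. All 32 again overlapped, while 0.669% of genes were lower and 0.481% higher without overlap. The higher member was Slc16a1, with 25.2, 23.9, 22.5, 26.5 and 24 CPM in mutants, against 19.8, 20.9, 22.2, 24.1 and 22.9 CPM in controls. Its groups overlapped, at 0.15 ± 0.0702 with an edgeR adjusted p of 0.662.

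The interaction, the stress difference in mutants minus that in controls, was tested for each member. In males 12 of 32 members were negative, against 50.5% of genes, with a median of 0.07, and 0 passed in edgeR, against 0% of genes. Ly6c1 (0.31 ± 0.13) and Mfsd2a (0.27 ± 0.122) were higher at an unadjusted p under 0.05, against 2.34% of genes, and 0 were lower, against 1.84%. Without the library labelled male mutant CVS replicate 1, 17 were negative and the median was −0.02, and without male mutant NS replicate 3 it was also just below 0. Without the 3 libraries with high Cdhr1, and with 1 male mutant NS mouse left, 16 were negative and the median was 0.001. In females 9 of 32 were negative, against 49.6% of genes, with a median of 0.08, and 0 passed in edgeR, against 0% of genes. That median was 0.01 without female control NS replicate 5, female control CVS replicate 5 or female mutant CVS replicate 1, and 0.23 without female control CVS replicate 4. One member, Slc16a1, was higher at an unadjusted p under 0.05 (0.21 ± 0.0991), against 2.09% of genes, and 0 were lower, against 1.92%. For Cldn5 the interaction was 0.17 ± 0.128 in males and 0.29 ± 0.224 in females, and for Kdr it was 0.28 ± 0.187 and 0.08 ± 0.353, all within 2 SE of 0.

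Differences between the sexes in these effects were tested in the fit of all 38 libraries. For stress in controls, male minus female, 19 of 32 members were negative, against 49.7% of genes, and 0 passed in edgeR, against 0%. For an unadjusted p under 0.05 the counts were 0 lower and 0 higher, against 3.3% and 3.89% of genes, so the separation of Cldn5 and Kdr in males is not shown to differ from the overlap in females: Cldn5 differed by −0.32 ± 0.18 and Kdr by −0.39 ± 0.276. For genotype without stress, 14 were negative, against 49.4% of genes, with 0 past the threshold, against 0%, and 0 lower and 0 higher at an unadjusted p under 0.05, against 2.05% and 2.07%. For the interaction, 20 were negative, against 50.4% of genes, with 0 past the threshold, against 0%, and 0 lower and 0 higher, against 1.53% and 1.7%. Without the library labelled male mutant CVS replicate 1, 21 were negative for the interaction. The medians of these 3 differences between sexes were −0.02, 0.03 and −0.05, and each changed sign when single libraries were left out.

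Averaged over the 4 pairs of groups, the mutants stood below controls for 30 of 32 members, against 50.1% of 17671 genes, with a median of −0.08. The 25 endothelial members had a median of −0.10, and none was above 0, although Tie1 stood at 0.00 ± 0.0745, and the 2 positive members were the pericyte genes Anpep (0.11 ± 0.136) and Abcc9, a potassium channel regulator (0.03 ± 0.0653). In edgeR 0 members passed, while 193 genes (1.09%) did. Lower at an unadjusted p under 0.05 were 5 members, against 6.12% of genes, and 0 were higher, against 5.09%. DESeq2 and limma voom gave 29 negative members each, with Tie1 just above 0. Without the library labelled male mutant CVS replicate 1, 30 members were negative and the median was −0.10. It was −0.05 without female control CVS replicate 4 or female control NS replicate 5. The pooled comparison uses the same libraries as the 4 separate ones and is not independent of them.

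Eng came nearest to the threshold in the pooled genotype comparison, at −0.20 ± 0.0587 with an edgeR adjusted p of 0.0855, and it passed with DESeq2 (adjusted p = 0.0308; 0.0261 to 0.205 over 43 alternatives). Its separate differences were −0.20 without and −0.11 with stress in males, and −0.32 without and −0.18 with stress in females, each negative. In stressed males Eng had 25.2, 23, 23.7 and 22.3 CPM in mutants, against 20.4, 26.2 and 28.2 CPM (lowest, median, highest) in 6 controls. In stressed females it had 14.6, 14.8, 13.7, 15.3 and 10.7 CPM in mutants, against 17.1, 11.7, 14.9, 20.8 and 13.8 CPM in controls. Mutants and controls overlapped in both.

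Esam was at −0.21 ± 0.0657 in the pooled genotype comparison (edgeR adjusted p = 0.134), with −0.35 and −0.20 in males without and with stress, and −0.30 and 0.02 in females. In stressed males Esam had 10.5, 9.86, 9.54 and 10.5 CPM in mutants, against 9.55, 11.9 and 13 CPM (lowest, median, highest) in controls. In stressed females it had 9.81, 8.39, 6.64, 7.1 and 7.17 CPM in mutants, against 7.56, 7.41, 8.09, 9.38 and 6.05 CPM in controls, which covered nearly the same range. Slc2a1 at −0.14 ± 0.0442, Mfsd2a at −0.15 ± 0.0509 and Sox17, a factor of arterial endothelium, at −0.19 ± 0.0774 followed, with edgeR adjusted p values of 0.14, 0.189 and 0.291. The call of a member hung on single libraries: Eng passed without male control CVS replicate 4, female control NS replicate 4 or female control CVS replicate 2. Esam passed without female control NS replicate 1, Mfsd2a without female control CVS replicate 5 and Slc2a1 without female mutant NS replicate 1. Without the 3 libraries with high Cdhr1, 26 members were negative and Eng was at −0.23 ± 0.0721, with an edgeR adjusted p of 0.177. Beside these values, all 5 oligodendrocyte markers were lower at an unadjusted p under 0.05 in the pooled comparison, with a median of −0.17, as were 2 of 5 microglia markers, and all 7 fibroblast markers were positive. Their part in the vessel values was not tested.

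**Figure D4:**
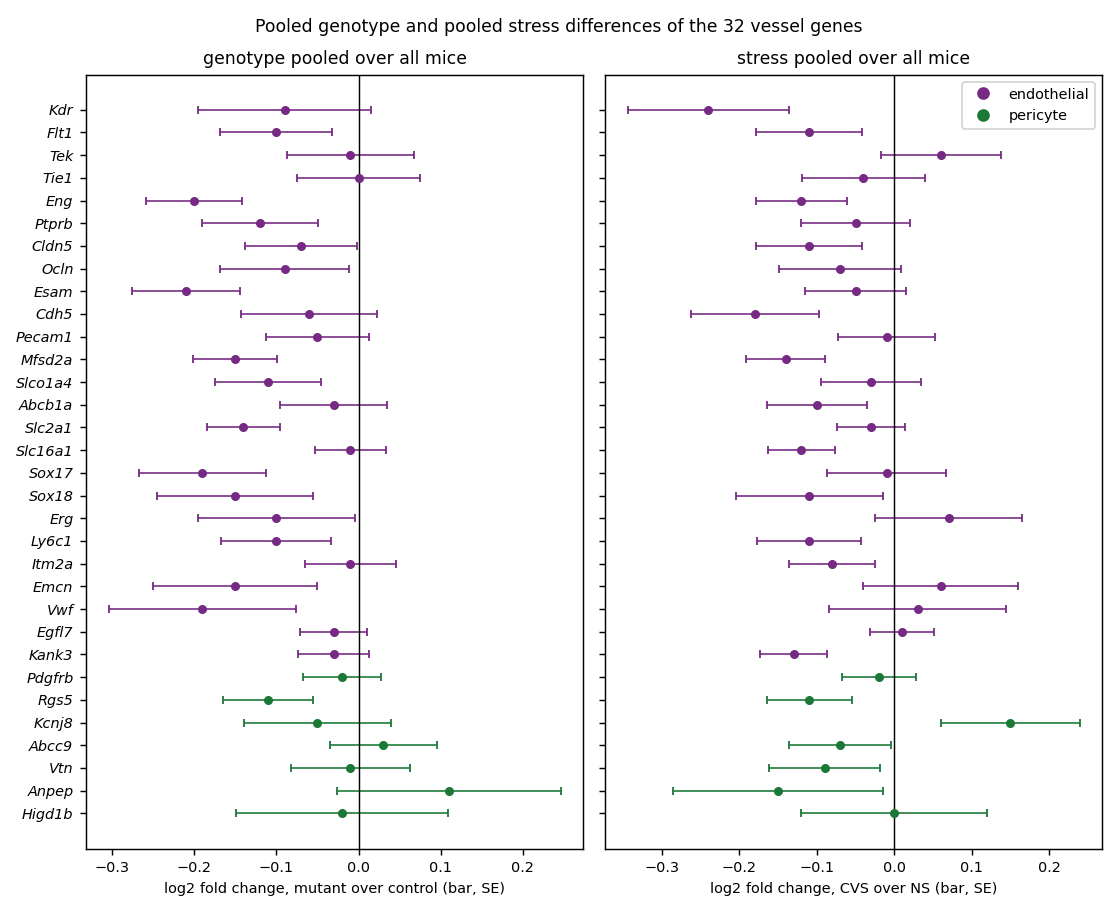
Log2 fold changes averaged over the 4 pairs of groups, mutant over control on the left and CVS over NS on the right, for the 32 members; points are estimates, bars are SE, endothelial genes in purple and pericyte genes in green. On the left the 25 endothelial estimates run from 0.00 for Tie1 down to −0.21 for Esam, and on the right 26 of the 32 members are negative, with Kdr at −0.24.

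For stress averaged over the 4 pairs, 26 of 32 members were negative, against 48.1% of genes, with a median of −0.07, and 0 passed in edgeR, against 0.017% of genes. At an unadjusted p under 0.05, 5 members were lower, against 4.4% of genes, and 0 were higher, against 4.96%. Without the library labelled male mutant CVS replicate 1, 26 were negative and the median was −0.08, while without female control NS replicate 5 the median was −0.04. Kank3 was at −0.13 ± 0.0432 (edgeR adjusted p = 0.322), and its separate values were −0.17 and −0.36 in male controls and mutants and 0.04 and −0.06 in female controls and mutants. Mfsd2a was at −0.14 ± 0.0508 (edgeR adjusted p = 0.371), with −0.18 and 0.09 in males and −0.31 and −0.19 in females in the same order. Slc16a1 was at −0.12 ± 0.0433 (edgeR adjusted p = 0.398), Kdr at −0.24 ± 0.104 and Cdh5 at −0.18 ± 0.0828. Kcnj8, the pore subunit of the pericyte potassium channel, was the member with the largest positive value, 0.15 ± 0.0895.

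Other genes of the vessel, in 9 lists that hold none of the members, were read in the same fits, and 0 of them passed the adjusted threshold in any of the 15 comparisons in edgeR. Their counts stand beside 49.9% of all genes negative, 3.79% lower and 3.6% higher at an unadjusted p under 0.05 for stress in male controls, and beside 50.1%, 6.12% and 5.09% for genotype pooled. Of 12 ligands and growth factors, 8 were negative in stressed male controls, 1 of them at an unadjusted p under 0.05: Apln, apelin, a peptide of endothelial tip cells, at −0.40 ± 0.0856 (edgeR adjusted p = 0.199). Apln was also at −0.31 ± 0.104 for genotype without stress in males and at −0.21 ± 0.0646 for genotype pooled. Angpt1, the activating ligand of Tek, stood at 0.50 ± 0.129 for genotype without stress in females (edgeR adjusted p = 0.114) and at 0.25 ± 0.0743 for genotype pooled, where 5 of 12 ligands were positive. Of 12 Wnt receptors and targets of the barrier, 11 were negative for genotype pooled and 2 of them at an unadjusted p under 0.05. Tspan12, a co-factor of the Wnt receptor Fzd4, was at −0.30 ± 0.0868 in unstressed mutant females.

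Among 10 further junction genes, 7 were negative in stressed male controls, with Lsr, the tricellular junction receptor, at −0.37 ± 0.124, and 5 of 10 for genotype pooled. Of 12 further barrier transporters, 11 were negative for genotype pooled, 3 at an unadjusted p under 0.05, among them Lrp8, a reelin receptor that is also neuronal, at −0.08 ± 0.0273. Tfrc, the transferrin receptor, was positive in stressed male controls at 0.19 ± 0.0544. Arterial and venous genes were negative in 8 of 10 for genotype pooled, with Bmx, a kinase of arterial endothelium, at −0.45 ± 0.146 and Ackr1, a chemokine-binding receptor of venules, at −0.11 ± 0.0364. Of 5 endothelial activation genes tested, all were negative in stressed male controls, with Nos3, endothelial nitric oxide synthase, at −0.30 ± 0.0924. Genes of transcytosis and caveolae were negative in 3 of 6 in stressed male controls and in 1 of 6 for genotype pooled. Other endothelial genes were negative in 11 of 16 in stressed male controls and in 15 of 16 for genotype pooled, and other pericyte genes in 11 of 12 and 9 of 12 in the same comparisons. The lists were chosen with earlier results of these libraries known, so their counts describe these mice only.

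Vessel genes varied together between mice of a group. Over 18 male libraries, with each group's mean removed, the mean pairwise Pearson correlation among the 32 members was 0.356, with 446 of 496 pairs positive, and over 20 female libraries it was 0.425, with 460 of 496 positive. The mean over all pairs of tested genes was 6e-04 in males and 1e-04 in females. Endothelial genes correlated at a mean of 0.358 in males and 0.511 in females, and pericyte genes at 0.373 and 0.198. Between endothelial and pericyte genes the mean was 0.351 in males and 0.306 in females. Between endothelial genes and neuronal markers it was −0.158 in males and −0.124 in females, and with smooth muscle markers 0.247 and 0.386. With red blood cell genes it was 0.007 in males and 0.368 in females. With microglia markers the mean was 0.199 in males and 0.419 in females, where 120 of 125 pairs were positive and the value lay above those with pericyte genes and with smooth muscle markers. Astrocyte markers gave 0.125 in males and 0.258 in females, oligodendrocyte markers 0.173 and 0.182, and fibroblast markers 0.3 and 0.108. These correlations are a description, since the genes share the library and its scaling.

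A few libraries stood far from their groups in these genes. Female mutant CVS replicate 5 had its endothelial genes at a mean deviation of −0.43 log2 units from its group, and its pericyte genes at −0.22. At the other end, female control CVS replicate 4 was at 0.31 and 0.22, female control NS replicate 5 at 0.26 and 0.17, and the library labelled male mutant CVS replicate 1 at 0.16 and 0.25. Members differed in how closely they followed the rest: in females Tek had the highest mean correlation with the other members, 0.628, and Mfsd2a the lowest, 0.05. Mfsd2a was also low in males, at 0.145, where Flt1 was highest at 0.556 and Abcc9 lowest at 0.1.

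**Figure D5:**
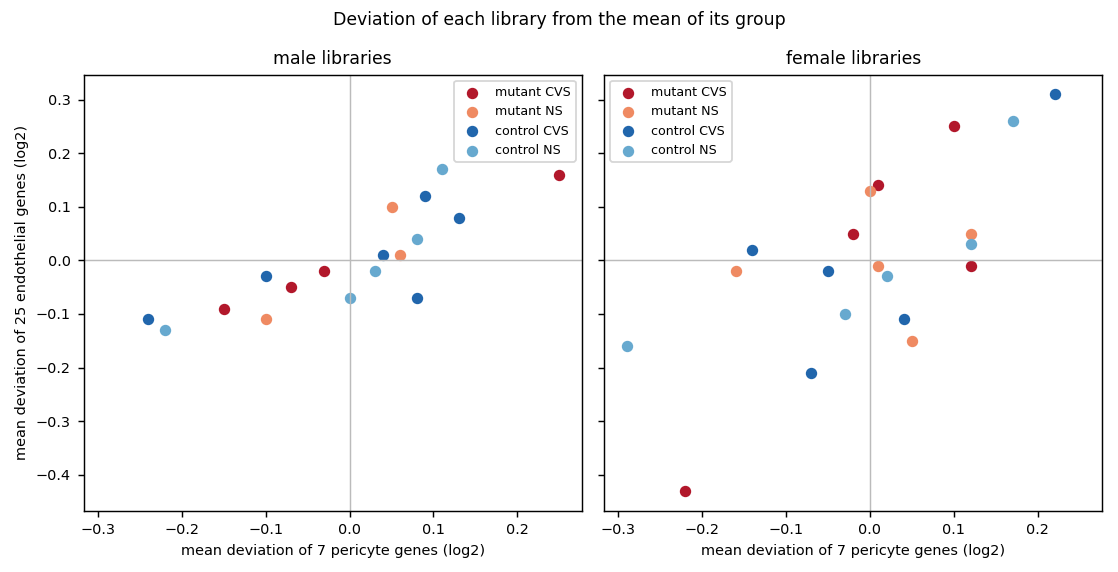
Mean log2 deviation of each library from its group mean, over 7 pericyte genes on the horizontal axis and 25 endothelial genes on the vertical axis, in 18 male and 20 female libraries, with colours for the 4 groups. Libraries run from the lower left, where female mutant CVS replicate 5 stands at −0.22 and −0.43, to the upper right, where female control CVS replicate 4 stands at 0.22 and 0.31.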

How the data were processed

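Counts per gene of 38 bulk RNA libraries of mouse medial prefrontal cortex were analysed. Per the labels' protocols, libraries were made from mRNA with a strand-keeping kit and read in pairs. Per the submitters' processing notes, reads were processed with fastp 0.23.2, STAR 2.7.10b and featureCounts on GRCm39; neither an annotation release nor a strand setting is stated in those notes, so reads of a gene and of an antisense partner may be mixed. The authors deposited raw counts, whole numbers without normalization. Symbols, exon lengths and promoters come from annotations of GRCm38, another build, and no coordinate was carried over to the counts.

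Each sex was fitted in R 4.3.3 with edgeR 4.0.16 (quasi-likelihood, robust, TMM, filterByExpr with a minimum count of 10 and a minimum total of 15), with 1 mean for each of 4 groups: 17212 genes in males, 16435 in females. A fit of all 8 groups (17671 genes) gave averages over groups and differences between sexes. P values were adjusted over all genes tested (Benjamini-Hochberg, 0.05). The SE was taken from the log2 fold change and F (its size over the root of F), and CPM and sums of CPM are on the TMM factors of the sex's fit. The model was tested on simulated counts with 1 spread for all genes, unlike these data. At 0.5 log2 units it called 96%, 98% and 100% of changed genes for stress in male controls, female controls and pooled. Of all genes called there, 8.41%, 2.94% and 2.44% were false. Alternatives used DESeq2 1.42.0, limma 3.58.1 (voom), RLE factors, no filter, 2 groups alone, and leaving out libraries. The 74 pairs of replicates differed by more than sampling noise (chi-square per degree of freedom 3.495 to 15.22). Python 3.11.15 with matplotlib 3.10.9 made the figures.

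Members and lists were chosen with earlier results of these data known. By rule, values in every library are given for Cldn5, Kdr, Esam and Mfsd2a and for the 2 members with the smallest p in each of 8 comparisons; values of other genes named stand beside their counts. Some genes, the targeted one among them, are not reported here.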

Additional observations from a re-analysis of the deposited data

Results flagged for a closer look

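In groups of 4 to 10 libraries, 84 sets of values (the named members and the summed levels) were searched for a library far from the rest of its group, and 5 were found; chance alone gives about 1 in 20 sets. Cdh5, VE-cadherin, stood at 21.7 CPM in male control NS replicate 5, where the nearest of the other 4 libraries had 17.3 CPM. In female control CVS replicate 4 it stood at 14.4 CPM, with the nearest library at 9.84 CPM, and the summed level of the 7 pericyte genes of that library was 148 CPM, with the nearest at 118 CPM. The library labelled male mutant CVS replicate 1 had a summed pericyte level of 218 CPM, with the nearest at 175 CPM. Slc16a1, the monocarboxylate transporter, was low in male mutant CVS replicate 2 at 24.8 CPM, with the nearest at 29.8 CPM. The causes were not tested.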

How the results depend on the processing

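No fold change of a member with an unadjusted p under 0.01 reversed. The median over the members changed sign with single libraries left out in 6 of 15 comparisons: it ran from −0.017 to 0.123 for the interaction in males, from −0.03 to 0.093 for stress in female mutants, from −0.119 to 0.072 for genotype under stress in females, and, male minus female, from −0.065 to 0.055 for stress in controls, from −0.083 to 0.107 for genotype without stress and from −0.148 to 0.022 for the interaction. The count of members called moved from 0 in these alternatives, for which no share of all genes called is given. Stress in male controls gave 2 with DESeq2, 2 with no filter on low counts and 1 with only the 2 groups compared. Stress in female controls gave 1 with no filter. Genotype pooled gave 1 with DESeq2 (Eng, adjusted p = 0.0308) and between 0 and 1 when each library was left out in turn. The cause was not tested, except that the 2-group and no-filter fits estimate the spread from other genes or samples. Of the other values, 334 counts of members called stayed at 0 as in the full fit. For single members, 395 of 408 fold changes stayed on their side of the threshold and 13 passed it. Limma voom and RLE factors called 0 members throughout. No paired analysis was possible because the labels give no pairing of animals and replicate numbers follow accession order. Depth limits the lowest members most: Higd1b had 16 counts in 1 library. Groups of 3 to 6 mice limit what single comparisons can show, and a p that misses the threshold does not show that levels are equal.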

Other observations

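Female libraries stood below male libraries for most vessel genes, on factors of all 38 libraries. The median female over male ratio of mean CPM was 0.684 over the 32 members, 0.674 over the endothelial and 0.765 over the pericyte members, beside 0.997 over 17671 genes. For 4 members every female library was below every male library, against 0.849% of genes: Flt1, Slco1a4, Rgs5 and Abcc9, named after their values were seen. None was higher without overlap, against 0.883% of genes. A few members were near parity, namely Mfsd2a at a ratio of 1.01, Vwf at 1.01, Anpep at 0.992 and Egfl7 at 0.948. Markers of other cell types were summed on factors of each sex's own fit, which are not a common scale for females and males. On those factors Egfl7 averaged 17.8 CPM in females and 19.9 CPM in males. On factors of all 38 libraries it averaged 18.3 and 19.3 CPM. Small differences between the sums, as for fibroblast, astrocyte and neuronal markers, therefore cannot be read as lower levels in females. Smooth muscle markers summed to a mean of 20.62 CPM in 20 female and 31.2 CPM in 18 male libraries, oligodendrocyte markers to 1053 and 1353 CPM, microglia markers to 240 and 276 CPM, fibroblast markers to 110.1 and 117.6 CPM, astrocyte markers to 1011 and 1061 CPM, and neuronal markers to 6333 and 6748 CPM. Their part in the vessel values was not tested. Sex and cohort cannot be told apart here, so these are values of 20 and 18 libraries and not a measured sex difference.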
